A study of Mus musculus with 8 samples.

Results

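The genes described here are 35 genes of blood and lymphatic endothelium and of vessel growth: 12 surface and junction proteins, 6 receptors, 9 ligands, secreted proteins and enzymes, 4 transcription factors and 4 lymphatic genes. They were read from mouse breast tumours by every array probe whose RefSeq accession belongs to the gene. All 35 had such a probe, 41 probes in all, among 21368 genes with a named probe. Of these, 31 genes had a probe bright enough to be tested, among 16761 genes tested. Sox17, Erg, Flt4 and Mmrn1 were not tested.

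Endothelial cells line blood and lymph vessels, hold together through junction proteins such as Cdh5 and Pecam1, and grow new vessels when VEGF ligands bind the receptors Kdr, Flt1 and Flt4. A second signalling system, in which the angiopoietins bind Tek with Tie1 as its partner, steadies mature vessels or loosens them for sprouting. ETS and SoxF transcription factors drive many endothelial genes. In a tumour these transcripts come from the vessels inside it, from any normal tissue taken with it and, for some of the genes, from other cells.

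The study compared tumours of FGFR1 KO mice, given as K19-tva/fgfr1loxP/loxP, with tumours of control K19-tva mice, labelled WT. Fgfr1 encodes a fibroblast growth factor receptor. Each group has 4 samples, each on 1 array, all from FVB mice. Both groups carry K19-tva, and the floxed fgfr1 allele came from ICR mice and had been backcrossed into FVB. The source of Cre, the agent that induced the tumours and the ages are not given in the sources used here. Whether each tumour is from its own mouse is not stated in the labels, so a p-value here reflects only the scatter among these samples, which may be technical. Values are log2 ratios of tumour RNA (red channel) over a universal human reference RNA (green channel). Because mouse probes read a human reference, ratios are compared here between arrays for 1 gene and not between genes. A difference is FGFR1 KO minus WT on that scale, and 0 means equal.

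Between 68.9% and 83.9% of the red spots of an FGFR1 KO array stood well above background, and between 43.9% and 69.2% of those of a WT array. For the green spots of the reference the shares were 89.4% to 91.4% and 69.5% to 82.0%. What this adds to the ratios was not tested. All 8 arrays shared 1 slide, with FGFR1 KO in its first row and WT in the other, so genotype and place on the slide cannot be told apart. In Row 97-336 and Col 83-164, which hold 31.3% of spots, 17.7% to 46.9% of negative control spots were bright on the WT arrays and 0% on the FGFR1 KO arrays, and 6 of the 31 tested genes were read there. WT 2 correlated with the other arrays at 0.36 on average, against 0.56 to 0.68 for the rest. It held the lowest median of 7 epithelial markers, -1.14 against 1.47 to 2.56 on the others, and the highest of 9 skeletal muscle markers, 8.57, with WT 1 next at 2.52 and the other arrays between -0.33 and 0.42. Results are therefore given with and without WT 1 and WT 2. The 3 tested Fgfr1 probes differed by 0.00 ± 0.12 (SE), -0.10 ± 0.41 and -0.49 ± 0.66, and since the sources used here do not say which exons were deleted, they do not check the labels.

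Most of the endothelial and vessel growth genes read lower in the FGFR1 KO tumours, by small amounts. Of the 31 tested genes, 24 had a difference below 0, against 50.4% of all genes tested, and their median difference was -0.29, against 0.00 over all genes. No single gene passed the test. Over all probes limma called 4 of 39795 (0.0101%) at an adjusted p under 0.05, and 0 of the 31 genes were among them. At an unadjusted limma p under 0.05, 5 of the 31 were lower, where 4.78% of all genes were, and 0 were higher, where 3.1% of all genes were. Those 5 were Pecam1, Icam2, S1pr1, Lyve1 and Angpt2. Pecam1 was also lower on every FGFR1 KO array than on any WT array, which held for 2.5% of all genes, and 0 of the 31 were higher on every FGFR1 KO array, which held for 1.85%. In bulk tumour RNA, fewer endothelial cells, less RNA per cell and a different share of normal tissue cannot be told apart. Nor can genotype and place on the slide.

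**Figure D1:**
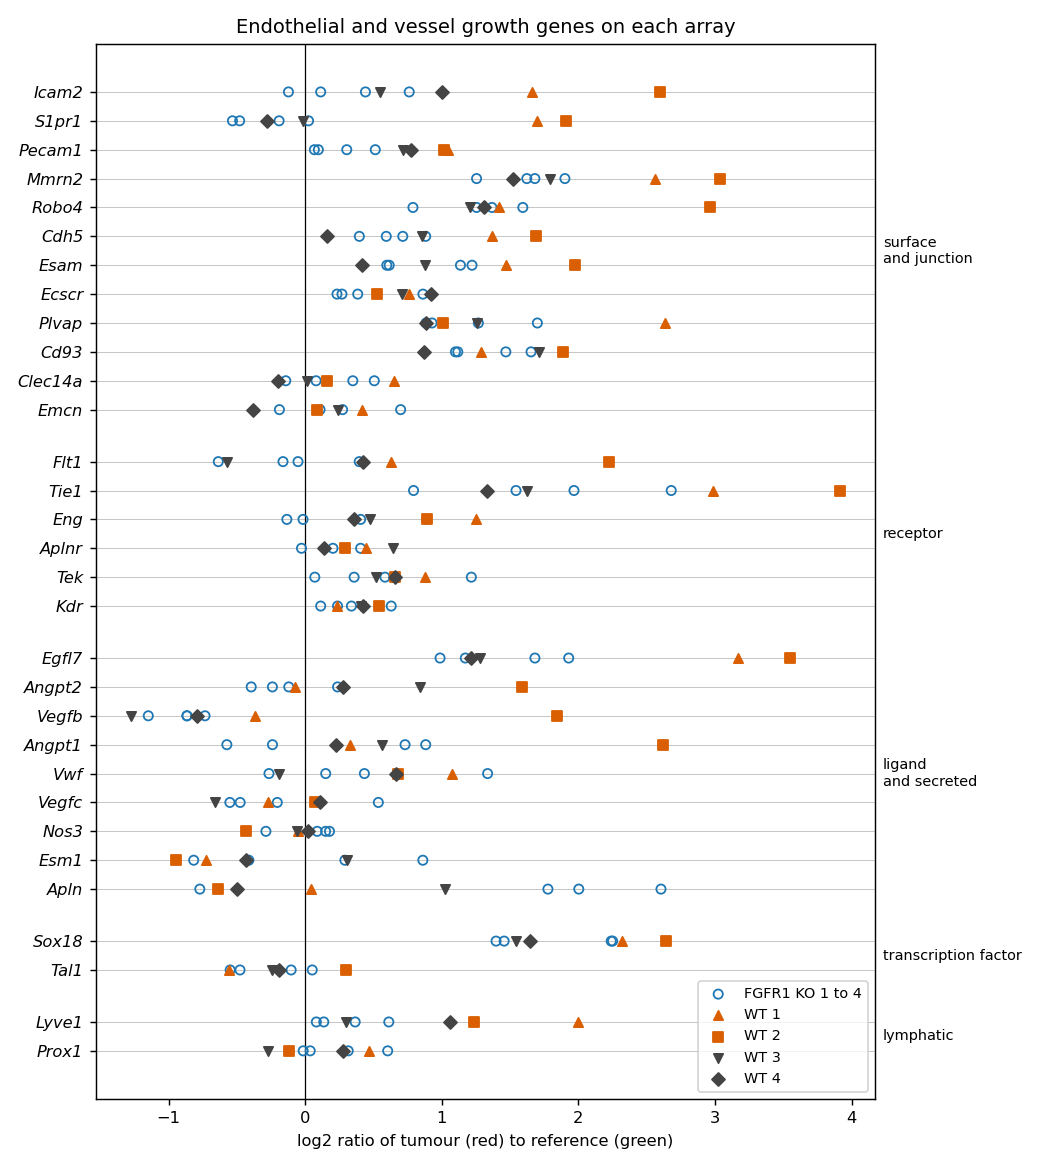
Log2 ratio of tumour to reference RNA (horizontal axis) for the 31 tested endothelial and vessel growth genes, 1 point per array, ordered by role and difference. Open circles are the 4 FGFR1 KO arrays and filled symbols the 4 WT arrays; WT 1 and WT 2, in orange, hold the highest value of 20 genes together, and Pecam1 is the gene whose circles all lie left of the filled symbols. Over all genes tested, WT 2 holds the highest value of 25.7% and WT 1 of 11.9%.

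The lower values rested largely on 2 of the WT arrays. The median of the 31 genes was 0.52, 0.36, 0.43 and 0.23 on FGFR1 KO 1 to 4, and 0.88, 1.01, 0.55 and 0.41 on WT 1 to 4. WT 1 and WT 2 thus lay above every FGFR1 KO array, WT 3 lay just above the highest and WT 4 lay among them. Of the 31 genes, 18 read higher on WT 2 than on every FGFR1 KO array, where 31.7% of all genes did, and 16 did so on WT 1, where 24% did. On WT 3 there were 4 such genes, against 18.9% of all genes, and on WT 4 there were 6, against 18%. Among all 8 arrays, WT 2 held the highest value for 15 of the 31 genes, where it did so for 25.7% of all genes. WT 1 held it for 5 of the 31, where it did so for 11.9% of all genes. Without WT 1 and WT 2, 15 of the 31 genes were below 0 and the median difference was 0.04. Without WT 2 alone, 22 were below 0 and the median was -0.13.

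The surface and junction genes held 10 of 12 differences below 0, with a median of -0.33 (6 of 12 and 0.02 without WT 1 and WT 2). Pecam1, the adhesion molecule CD31 found at endothelial junctions and on platelets and leukocytes, was the clearest of them. Its ratio was 0.51, 0.10, 0.30 and 0.07 on FGFR1 KO 1 to 4 and 1.05, 1.01, 0.72 and 0.78 on WT 1 to 4. The groups did not overlap, and the WT arrays lay close together. The difference was -0.64 ± 0.16 (SE; 95% confidence interval -0.9999 to -0.287), a level 1.56-fold lower in FGFR1 KO, with an adjusted p of 0.341 by limma over all probes. An exact two-sided permutation test gave 0.0286, the smallest p that 4 arrays against 4 allow. With WT 1 and WT 2 left out it was -0.50. Leaving out arrays cannot make separate groups overlap, so the separation in that setting is no further test. There, 6.92% of all genes were lower on every FGFR1 KO array.

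Icam2, an adhesion molecule of endothelium and platelets, had the most negative difference of the 31 genes. It read 0.76, -0.12, 0.44 and 0.11 on FGFR1 KO 1 to 4 and 1.66, 2.60, 0.55 and 1.00 on WT 1 to 4. WT 1, WT 2 and WT 4 lay above every FGFR1 KO array, while WT 3 lay below FGFR1 KO 1. The difference was -1.15 ± 0.42 (95% interval -2.10 to -0.21; adjusted p = 0.514 by limma; exact permutation p = 0.0571), and it was -0.47 without WT 1 and WT 2. Its spot lies in the area where negative controls were bright on WT arrays, and what this adds to the difference was not tested. S1pr1, the receptor through which sphingosine 1-phosphate keeps vessels tight, read -0.53, -0.19, 0.02 and -0.48 on FGFR1 KO 1 to 4 and 1.69, 1.91, -0.02 and -0.28 on WT 1 to 4. WT 1 and WT 2 were high, and the other WT arrays lay within the FGFR1 KO range. Its difference of -1.12 ± 0.49 (adjusted p = 0.589 by limma; exact permutation p = 0.143) became -0.14 without those arrays, and 2 of the 4 WT spots were well above background.

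Cdh5, the VE-cadherin that forms the adherens junction between endothelial cells, was a dim probe. It was well above background in red on 3 FGFR1 KO arrays and 1 WT array, and in green on 0 arrays of either group. It read 0.71, 0.40, 0.88 and 0.59 on FGFR1 KO 1 to 4 and 1.37, 1.69, 0.85 and 0.16 on WT 1 to 4. The WT arrays held both the highest and the lowest value, and the groups overlapped. The difference was -0.37 ± 0.31 (95% interval -1.07 to 0.33; adjusted p = 0.746 by limma; exact permutation p = 0.343). It was 0.14 without WT 1 and WT 2, and 1.41 in the scanner's own ratio, so its direction is not settled.

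Clec14a, a C-type lectin of sprouting endothelium, had 2 probes that pointed different ways. The brighter one read 0.51, -0.14, 0.35 and 0.08 on FGFR1 KO 1 to 4 and 0.65, 0.16, 0.01 and -0.20 on WT 1 to 4, with a difference of 0.04 ± 0.22. The dimmer one read -0.02, -0.24, -0.06 and -0.25 against 0.26, -0.08, -0.07 and -0.19 and was not well above background on any array. Neither separated the genotypes. The differences of the other surface genes ran from -0.61 to 0.13. At one end was Mmrn2, a matrix protein that binds Clec14a and Cd93, at -0.61 ± 0.33 (-0.04 without WT 1 and WT 2). At the other was Emcn, the sialomucin endomucin of veins and capillaries, at 0.13 ± 0.24. The spots of Mmrn2 and Emcn lie in the area of bright controls. Robo4, a receptor that steadies vessels, Esam, a tight junction molecule, and Plvap, which forms the diaphragms of fenestrated endothelium, were at -0.47 ± 0.39, -0.29 ± 0.33 and -0.25 ± 0.38. The values without WT 1 and WT 2 were -0.01, 0.25 and 0.12. In green, the Robo4 spot was well above background on 4 FGFR1 KO and 0 WT arrays. The second Plvap probe gave -0.37 ± 0.35. Ecscr, an endothelial receptor of cell movement, was at -0.29 ± 0.18 and at -0.38 without the pair, but at 0.07 both in the scanner's own ratio and with red signal alone. Its probe was well above background on 3 FGFR1 KO arrays and 1 WT array. Cd93, a lectin-like receptor of angiogenic endothelium, was at -0.10 ± 0.25.

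All 6 receptors had a difference below 0, with a median of -0.32 (5 of 6 and -0.06 without WT 1 and WT 2), and 0 of them reached an unadjusted limma p under 0.05. The direction was not the same under every scaling. Kdr and Tie1 were above 0 in the scanner's own ratio, at 0.12 and 0.34, and Kdr and Aplnr with red signal alone, at 0.34 and 0.28. Kdr, the main VEGF receptor of endothelium, differed little. Its brighter probe read 0.34, 0.24, 0.11 and 0.63 on FGFR1 KO 1 to 4 and 0.23, 0.54, 0.41 and 0.42 on WT 1 to 4. The WT values lay inside the FGFR1 KO range. The difference was -0.07 ± 0.15 (95% interval -0.42 to 0.28; adjusted p = 0.908 by limma; exact permutation p = 0.657). The interval leaves room for a Kdr level lower by 0.42 or higher by 0.28 in FGFR1 KO. A dimmer Kdr probe, well above background on 3 of 8 arrays and not tested, read 1.13, 0.57, 1.14 and 0.70 against 1.79, 2.68, 0.84 and 0.87, with WT 1 and WT 2 high. The spot of the brighter probe lies in the area of bright controls, as do 2 of the 10 spots averaged for the dimmer one.

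Tek, the angiopoietin receptor Tie2, read 0.07, 0.36, 0.58 and 1.22 on FGFR1 KO 1 to 4 and 0.88, 0.66, 0.52 and 0.66 on WT 1 to 4. FGFR1 KO arrays held both the lowest and the highest value. The difference was -0.12 ± 0.24 (95% interval -0.66 to 0.42; adjusted p = 0.897 by limma; exact permutation p = 0.686). Tie1, its partner receptor, and Flt1, a VEGF receptor that also acts as a trap for the ligand, had larger but less certain differences, at -0.72 ± 0.60 and -0.79 ± 0.52. WT 2 read 3.91 for Tie1 and 2.22 for Flt1, the highest of the 8 arrays in both. Without WT 1 and WT 2 the Tie1 difference was 0.27 and the Flt1 difference -0.04. In green, the Tie1 spot was well above background on 0 arrays of either group, which limits its ratio. Eng, the TGF-beta co-receptor endoglin, was at -0.46 ± 0.28 (-0.13 without the pair). Aplnr, the apelin receptor, was at -0.19 ± 0.18 with 3 FGFR1 KO arrays, since its spot on FGFR1 KO 1 was an outlier. The Aplnr spot lies in the area of bright controls.

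The upstream sequences of 3 genes that peaked on WT 2 and of Kdr are shown for comparison. The brighter Kdr probe did not peak on WT 2, while the dimmer one did. The genes were chosen after their values were seen. The sequences are the 250 bases before the annotated start in the RefSeq promoter table of GRCm38.p6, 5′ to 3′ on the gene's strand. Capitals mark GGAAGT, the only form of ETS site searched for, or its reverse complement. Other stretches with the shorter GGAA or its reverse complement are not marked. The words no match therefore mean only that GGAAGT is absent.
Tie1, chr4:118489850-118490099, minus strand, first base of the match at -82: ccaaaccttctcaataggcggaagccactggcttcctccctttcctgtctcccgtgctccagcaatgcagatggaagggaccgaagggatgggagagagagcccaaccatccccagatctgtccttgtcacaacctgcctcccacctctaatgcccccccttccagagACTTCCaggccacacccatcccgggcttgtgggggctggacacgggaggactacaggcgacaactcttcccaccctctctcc
Flt1, chr5:147726012-147726261, minus strand, first base of the match at -52: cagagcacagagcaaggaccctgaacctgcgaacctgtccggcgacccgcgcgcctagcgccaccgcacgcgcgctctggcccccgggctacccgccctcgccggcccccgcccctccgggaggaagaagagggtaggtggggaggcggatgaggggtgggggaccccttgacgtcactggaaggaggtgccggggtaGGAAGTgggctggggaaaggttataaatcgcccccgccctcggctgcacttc
Robo4, chr9:37401722-37401971, plus strand, no match: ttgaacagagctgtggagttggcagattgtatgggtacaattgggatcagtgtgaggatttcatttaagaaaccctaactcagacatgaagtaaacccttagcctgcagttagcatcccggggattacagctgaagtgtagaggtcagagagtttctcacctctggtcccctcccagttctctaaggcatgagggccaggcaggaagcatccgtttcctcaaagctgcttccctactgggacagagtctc
Kdr, chr5:75978456-75978705, minus strand, first base of the match at -217: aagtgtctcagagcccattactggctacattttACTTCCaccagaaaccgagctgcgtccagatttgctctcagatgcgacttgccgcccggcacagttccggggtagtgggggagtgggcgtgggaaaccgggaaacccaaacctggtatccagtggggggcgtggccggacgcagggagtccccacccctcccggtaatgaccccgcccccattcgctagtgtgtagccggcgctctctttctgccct

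Of the 35 genes, 18 had promoters in that table, with 24 windows of 300 bases that run to 50 bases past the start. GGAAGT on either strand was found in 7 of the 24 windows (29.2%), for Egfl7, Eng, Flt1, Kdr, Mmrn1 and Tie1, against 23.8% of all 32851 windows. The SoxF core AACAAT on either strand, which does not overlap GGAAGT, was found in 4 of 24 (16.7%), for Emcn, Erg, Mmrn1 and Tek, against 10.7% of all windows. A match is only those letters in the window.

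**Figure D2:**
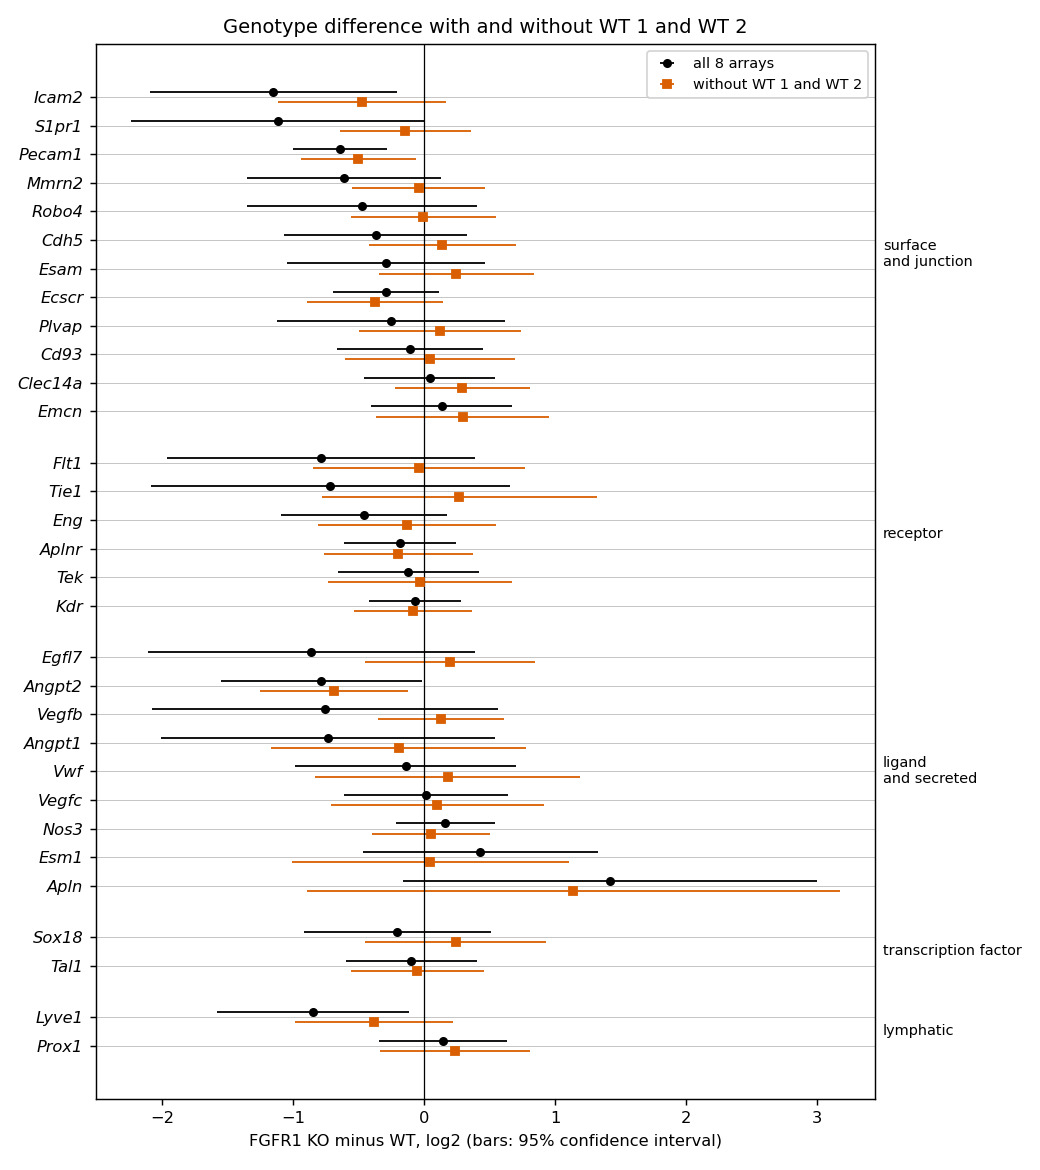
Difference FGFR1 KO minus WT on the log2 scale (horizontal axis) for the 31 tested genes by role, with 95% confidence intervals from limma. Black points use all 8 arrays and orange squares leave out WT 1 and WT 2; with all arrays 24 points lie below 0, and without the pair 15 do.

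The ligands, secreted proteins and the enzyme Nos3 were mixed, with 5 of 9 below 0 and a median of -0.14 (2 of 9 and 0.10 without WT 1 and WT 2). Angpt2, the angiopoietin that sprouting endothelium releases to loosen vessels, read -0.12, -0.40, -0.24 and 0.24 on FGFR1 KO 1 to 4 and -0.08, 1.58, 0.84 and 0.28 on WT 1 to 4. Only WT 1 lay within the FGFR1 KO range. The difference was -0.79 ± 0.34 (95% interval -1.55 to -0.02; adjusted p = 0.581 by limma; exact permutation p = 0.0571). It was -0.69 without WT 1 and WT 2, and -0.48 without WT 2 alone. Leaving out WT 1 removes the only overlapping WT array, so the groups are then apart by construction. In that setting without the pair, 6.92% of all genes were lower on every FGFR1 KO array. The spot is in the area of bright controls and was well above background on 3 arrays of each group. Angpt1, the angiopoietin that steadies vessels, was at -0.73 ± 0.56, where WT 2 read 2.62 and the other arrays -0.57 to 0.88, and it was at -0.17 without WT 2.

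Vegfc, the ligand that drives lymphatic growth through Flt4, did not separate the genotypes. It read 0.54, -0.48, -0.20 and -0.55 on FGFR1 KO 1 to 4 and -0.27, 0.07, -0.66 and 0.11 on WT 1 to 4. The difference was 0.01 ± 0.28 (95% interval -0.61 to 0.64; adjusted p = 0.991 by limma; exact permutation p = 1). Vegfb, a VEGF that binds Flt1, was at -0.76 ± 0.58, where WT 2 read 1.85 and the other 7 arrays -1.27 to -0.37, and it was at 0.13 without WT 1 and WT 2.

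Apln, the peptide apelin that tip cells of sprouting vessels release, went the other way and had the largest positive difference of the 31 genes. It read -0.77, 2.00, 1.78 and 2.60 on FGFR1 KO 1 to 4 and 0.04, -0.64, 1.03 and -0.50 on WT 1 to 4. FGFR1 KO 2, 3 and 4 lay above every WT array, but FGFR1 KO 1 was the lowest of all. The difference was 1.42 ± 0.70 (95% interval -0.16 to 3.00; adjusted p = 0.62 by limma; exact permutation p = 0.171), and 2.15 without FGFR1 KO 1. With WT 1 and WT 2 left out it was 1.14. Its probe was well above background on all 8 arrays and outside the area of bright controls.

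Egfl7, a protein that endothelium secretes into its matrix, was at -0.86 ± 0.55. WT 1 and WT 2 read 3.17 and 3.55, and the other 6 arrays 0.99 to 1.93. Without the pair the difference was 0.20. Vwf, the clotting protein von Willebrand factor, was at -0.14 ± 0.37, and Esm1, a proteoglycan of tip cells, at 0.43 ± 0.40 (0.05 without the pair). Nos3, the nitric oxide synthase of endothelium, had 2 probes that differed in sign. The brighter read 0.15, -0.29, 0.18 and 0.09 on FGFR1 KO 1 to 4 and -0.05, -0.43, -0.06 and 0.02 on WT 1 to 4, a difference of 0.16 ± 0.17. The dimmer, with 1 of its 10 spots in the area of bright controls and not tested, read 0.02, -0.05, 0.08 and 0.09 against 1.22, 1.34, -0.03 and 0.07, so only WT 1 and WT 2 stood out. It was well above background in red on FGFR1 KO 1, FGFR1 KO 4 and WT 2 alone, and so not on WT 1.

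Of the transcription factors, Sox18, a SoxF factor of blood and lymph vessels, was at -0.20 ± 0.31 (0.24 without WT 1 and WT 2), and Tal1, a factor of blood and endothelial precursors, at -0.10 ± 0.22. Sox17, a SoxF factor of arteries, was read by 2 dim probes in that area of bright controls. One of them was not well above background on any FGFR1 KO array and was so on WT 4 alone among the WT arrays, and it read 0.05, 0.02, 0.28 and 0.08 on FGFR1 KO 1 to 4 and 1.17, 0.37, 0.57 and 2.27 on WT 1 to 4. Since 7 of these 8 readings were not well above background, they give no order of the groups. The other read 0.41, 0.61, 0.62 and 0.25 against 1.04, 0.96, 1.00 and -0.21, and overlapped. Erg, an ETS factor that keeps endothelial identity, was not well above background on any array with either of its 2 probes.

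Among the lymphatic genes, Lyve1, a hyaluronan receptor of lymphatic endothelium and of some macrophages, read 0.14, 0.37, 0.61 and 0.08 on FGFR1 KO 1 to 4 and 2.00, 1.24, 0.30 and 1.06 on WT 1 to 4. WT 1, WT 2 and WT 4 lay above every FGFR1 KO array and WT 3 among them. The difference was -0.85 ± 0.32 (95% interval -1.58 to -0.11; adjusted p = 0.539 by limma; exact permutation p = 0.0857). It was -0.38 without WT 1 and WT 2, and the probe was well above background on 2 FGFR1 KO and 3 WT arrays. Prox1, the factor that sets lymphatic identity and is also made in liver and muscle, was at 0.15 ± 0.22. Flt4, the receptor for Vegfc, was above background on 3 of 8 arrays and was not tested. It read 0.65, 0.35, 0.15 and -0.23 on FGFR1 KO 1 to 4 and 0.12, 0.58, 0.34 and 0.78 on WT 1 to 4, and the groups overlapped (exact permutation p = 0.429). Mmrn1, a matrix protein of platelets and lymphatic endothelium, was above background on 1 array and read -0.41 to -0.23 against -0.35 to 1.20. Of the lymphatic genes tested, Lyve1 alone reached an unadjusted limma p under 0.05.

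Other genes of vessel growth and endothelium were also mostly below 0. Of 27 further vessel growth genes, 18 were below 0 with a median of -0.34, and without WT 1 and WT 2 20 of 26 were, with a median of -0.28. Among them Nrp1, a co-receptor for VEGF and semaphorins, was lower on every FGFR1 KO array than on any WT array, at -0.95 ± 0.28 (adjusted p = 0.439 by limma). Sema3e, a semaphorin that repels growing vessels, was at -0.89 ± 0.27 (adjusted p = 0.447 by limma), and its probe was read in the area of bright controls. Of 27 further endothelial markers, 22 were below 0 with a median of -0.40, but 15 of 27 with a median of -0.01 without the pair. Klf4, a factor that endothelium and epithelium share, was at -1.08 ± 0.30 and did not overlap, and Cd34, a sialomucin of endothelium and of stromal and blood precursors, was at -0.99 ± 0.39. None of these lists held a gene past the adjusted threshold of limma. At an unadjusted limma p under 0.05, 4 of 27 and 3 of 27 were lower, where 4.78% of all genes were. Without WT 1 and WT 2 these were 3 of 26 and 2 of 27, where 4.45% of all genes were. With all arrays, 2 and 1 of their genes were lower on every FGFR1 KO array than on any WT array, where 2.5% of all genes were.

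Pericyte and mural markers, which come from the cells that wrap vessels, held 6 of 11 below 0 with a median of -0.28 (5 of 11 and 0.11 without WT 1 and WT 2). Pdgfrb, the receptor that draws pericytes to vessels and is also made by fibroblasts, read -0.28, -1.03, -0.51 and -1.32 on FGFR1 KO 1 to 4 and -0.06, -0.02, -0.19 and -0.20 on WT 1 to 4. The groups did not overlap, and the difference was -0.67 ± 0.23 (adjusted p = 0.483 by limma). Mcam, an adhesion molecule of pericytes and endothelium named after its values were seen, was separated the other way, at 0.50 to 0.54 on FGFR1 KO and 0.34 to 0.49 on WT, with a difference of 0.12 ± 0.12 (adjusted p = 0.785 by limma). Des, the muscle and pericyte filament desmin, was at -1.77 ± 1.27, where WT 2 read 5.34. The Mcam and Des probes were read in the area of bright controls. Over all genes, 2.5% were separated downward as Pdgfrb was, and 1.85% upward as Mcam was. Of 4 other lymphatic markers 3 were below 0 with a median of -0.40, and Maf, a factor that lymphatic endothelium shares with leukocytes, was at -1.48 ± 0.60.

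Markers of some other cell types were high on the same 2 WT arrays. The median of 13 adipocyte markers was 0.16 to 0.33 on the FGFR1 KO arrays, 2.28 on WT 1, 3.87 on WT 2, and 0.42 and 0.40 on WT 3 and WT 4, and all 13 were below 0 in the difference. Of 9 skeletal muscle markers 8 were below 0, with the medians per array given above. The 10 fibroblast markers did not follow the pair. Their medians were -2.02 to -0.68 on FGFR1 KO and 0.03 to 1.25 on WT, all 10 were below 0 with a median difference of -1.67, and without WT 1 and WT 2 all 10 still were, at -1.48. The median difference of the endothelial and vessel growth genes went from -0.29 to 0.04 when the pair was left out, and that of the adipocyte markers from -1.61 to -0.15. The epithelial markers had a median difference of 1.16 with the pair and -0.21 without it. Of 7 leukocyte markers 6 were below 0 in both settings, with medians of -0.35 and -0.26, and of 4 platelet and megakaryocyte markers 3 and then 4 were, with medians of -0.43 and -0.63. The median of 4 erythroid markers ranged from 2.89 to 7.53 on FGFR1 KO and from 4.62 to 8.34 on WT, and all 4 differences were below 0. Pecam1 and Icam2 are also made by platelets and leukocytes, and Lyve1 by macrophages. The part these cells play in the results was not tested.

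**Figure D3:**
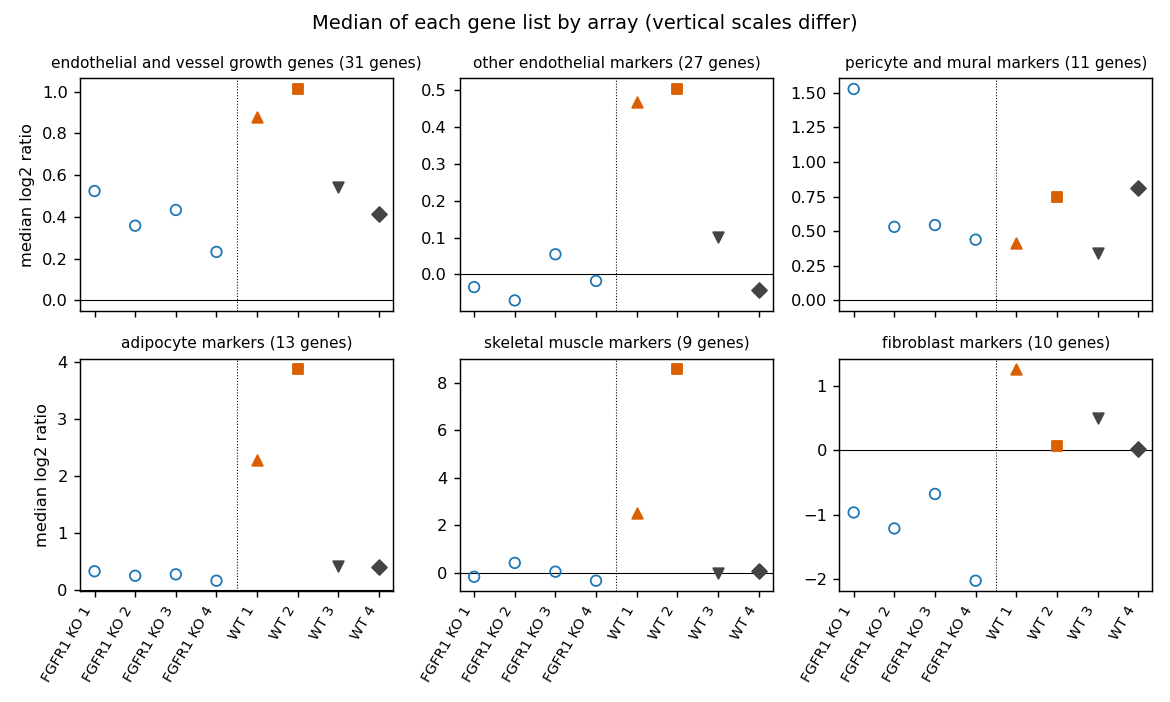
Median log2 ratio of tumour to reference RNA (vertical axis, scales differ) on each array for the endothelial and vessel growth genes and 5 other marker lists, with the number of genes tested in each. Open circles are FGFR1 KO arrays and filled symbols WT arrays; WT 1 and WT 2 are highest in the endothelial, adipocyte and muscle panels, while all 4 WT arrays lie above all FGFR1 KO arrays in the fibroblast panel.

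The share of the genes below 0 stayed above that of all genes in each of 19 further settings, and came close to it in 1. Of the 25 tested genes read outside the area of bright controls, 19 were below 0 with the same median of -0.29, where 43.6% of all genes outside it were. With the scanner's own ratio 21 of the 31 were below 0 against 39.2% of all genes, and with red signal alone 22 were against 39.4%. The median of all genes was 0.09 and 0.10 in these settings, and that of the 31 genes -0.14 and -0.16. Without WT 1 and WT 2 the shares were 48.4% of the 31 genes and 47.0% of all genes. Pecam1 was below 0 in all settings tried, between -0.73 and -0.50, and Apln above 0 in all, between 1.02 and 2.15.

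**Figure D4:**
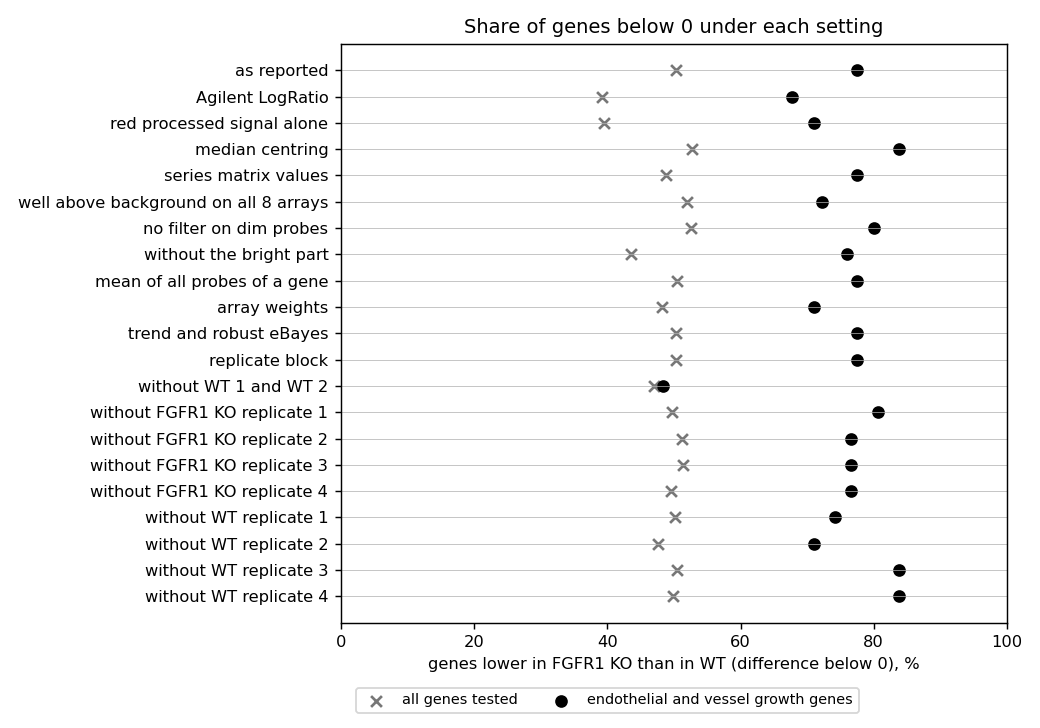
Share of genes with a difference below 0 (horizontal axis, percent) as reported and under 20 other settings, for all genes tested (crosses) and for the endothelial and vessel growth genes (points). The points lie at 67.7% or more except without WT 1 and WT 2, where both shares are near each other, at 47.0% and 48.4%.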

How the data were processed

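Tumour RNA from 8 samples was measured on 2-colour Agilent arrays of 1 slide. Per the file headers, the spot signal and background columns are linear intensity values, and the processed signals are intensities that the scanner's software had corrected for background and dye. Its deposited ratio column is on the log10 scale, red over green. The deposited series matrix was taken as log2 ratios of red over green, since its columns correlated at 0.985 to 0.991 with the values computed here. Its column medians were 0.0152, -0.0155, -0.00112 and 0.00458 for the 4 FGFR1 KO arrays, and -0.00481, -0.00181, -0.00562 and 0.00171 for the 4 WT arrays. The sources used here do not give its normalization and centring. The tumour was taken as red from the labelling protocol, although the label field has cy3. Within groups the SD over 23622 spots was 0.165 and 0.186 in green and 0.308 and 0.391 in red.

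The analysis used limma 3.58.1 in R 4.3.3, with normexp background correction with offset 50, loess within arrays, control and outlier spots left out, replicate spots averaged. Of 55681 probes, limma tested the 39795 with red well above background on at least 4 arrays and 3 or more values in each group (two-sided, Benjamini-Hochberg over all probes, threshold 0.05). The number of arrays limits the precision. A gene could pass through the FGFR1 KO arrays alone. RefSeq accessions named probes through a table of GRCm38.p6, and a gene is represented by its brightest probe. The fit was tested on simulated data. Exact permutation tests compared 4 arrays with 4.

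The genes and lists were chosen with earlier results of these data known. Values on every array are given for Pecam1, Cdh5, Kdr, Tek, Flt4, Lyve1 and Vegfc, for genes with an unadjusted limma p under 0.05 or groups that do not overlap, and for genes whose probes differ in sign. Apln and the single values given for other genes were chosen after their values were seen. From each related list at most 2 genes with the smallest p are named, and Mcam besides. Same-numbered arrays did not deviate together (correlations -0.11 to 0.11), so the numbers pair nothing.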

Additional observations from a re-analysis of the deposited data

Results flagged for a closer look

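In 63 groups of 4 values, 2 held an array far from the other 3, where chance gives about 3.15. For Robo4, WT 2 read 2.97 and the nearest WT array 1.42. For Angpt1, WT 2 read 2.62 and the nearest WT array 0.57. Both were the same array.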

How the results depend on the processing

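None of the 31 genes passed the adjusted threshold of limma in any of the 20 alternatives, and the count of genes below 0 stayed within 1.5 times 24 in all but 2. Of the 31, 14 kept their sign in every alternative that gave a value. Genes below 0 numbered 13 of 18 with probes above background on all 8 arrays, and 15 of 31 without WT 1 and WT 2, where the median was 0.043. The 5 genes lower at an unadjusted p became 2 with the scanner's ratio, 3 with red alone, 3 with median centring, 2 with the filter of 8 arrays, 3 without the bright part, 2 with the replicate block and 2 without WT 1 and WT 2. Over all genes, 2.10% to 5.42% were lower at an unadjusted limma p under 0.05 in these settings. Red alone also gave 1 gene higher and 1 gene separated upward. Leaving out WT 1 and WT 2 gave 2 of 31 separated downward, where 6.92% of all genes were. Leaving out 1 array gave 2 to 8 lower, 0 to 1 higher, 1 to 4 separated downward and 0 to 1 separated upward. With 1 array left out, 3.40% to 5.92% of all genes were lower and 3.52% to 4.75% separated downward. Over all probes, the 4 calls became 139 with no filter on dim probes, 11 with array weights, 0 to 1 with 1 array left out, and 0 with the scanner's ratio, red alone, median centring, the filter of 8 arrays, without the bright part, with trend and robust eBayes, with the replicate block and without WT 1 and WT 2. The cause was not tested. Signs turned for Kdr (0.12), Vegfc (-0.020), Tie1 (0.34), Ecscr (0.072) and Cdh5 (1.41) with the scanner's ratio. They turned for Kdr (0.34), Aplnr (0.28), Vegfc (-0.16) and Ecscr (0.069) with red alone, for Clec14a (-0.020) and Vegfc (-0.025) with median centring, and for Cd93 (0.020) and Sox18 (0.0032) with array weights. Without WT 1 and WT 2 they turned for Egfl7 (0.20), Cd93 (0.043), Plvap (0.12), Vwf (0.18), Esam (0.25), Vegfb (0.13), Sox18 (0.24), Tie1 (0.27) and Cdh5 (0.14). With 1 array left out, signs turned within Clec14a -0.077 to 0.21, Tek -0.34 to 0.041, Vegfc -0.22 to 0.14, Vwf -0.45 to 0.084, Emcn -0.026 to 0.27, Kdr -0.17 to 0.0029, Plvap -0.44 to 0.14, Cd93 -0.29 to 0.044 and Tal1 -0.23 to 0.061. Red signal over background limits Cdh5 and Ecscr most, each with 4 of 8 spots above background. In green, the reference was well above background on 0 arrays of either group for Cdh5 and Tie1. It was so on 0 WT arrays for Robo4 and Sox18, and on 1 WT array for Ecscr and for Lyve1.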
